A study of Homo sapiens with 6 samples.

Results

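Focal adhesions are the sites where integrins, the transmembrane receptors for matrix proteins, are tied to actin filaments. Talins and kindlins bind integrin tails and switch them on, vinculin and the ILK complex carry the link to actin, and kinases such as FAK signal from the site. The actin side is shaped by proteins that branch, elongate, bundle, cut or cover the filaments. In macrophages and osteoclasts this machinery also builds podosomes, small actin cores ringed by adhesion proteins. The genes described here are 53 of these adhesion and actin regulators, listed by known function, with the integrins themselves left out, when earlier results of these data were already known. Of the 53, 51 were measured by a probe set carrying their symbol alone, among 18417 genes tested in all, and the expression of CRK and FLNA is not analysed here.

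THP-1 is a human line grown from a monocytic leukaemia, and it lives in suspension. The study compared 3 arrays of unstimulated THP-1 cells with 3 arrays of THP-1 cells given 200 nM PMA for 3 days and then kept 3 further days without it. PMA, a phorbol ester, switches on protein kinase C, and THP-1 cells given it attach and take on features of macrophages. Both groups are of this single line, grown in RPMI with 10% FBS, 2.5 mM glutamate and 0.05 mM mercaptoethanol. The labels do not tell whether replicates were separate cultures, so p-values here weigh differences against array-to-array spread that may be only technical. Only 3 arrays a group limit the precision. Values are log2 per probe set, so results compare levels between groups, not between genes. The marker levels below are given only as a rough description of the cells.

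Array medians lay between 6.10 and 6.25 and lower quartiles between 4.46 and 4.57. The unstimulated replicate 1 array and the PMA replicate 3 array stood apart from their groups. Unstimulated replicate 1 was farthest from the other arrays of its group for 31 of the 51 members (60.8%, against 46.3% of all genes). PMA replicate 3 was so for 24 members (47.1%, against 42.9% of all genes). The leukocyte genes PTPRC, SPI1 and TYROBP had group means of at least 9.76, and 8 monocyte and macrophage markers averaged 10.13 to 10.51 on the unstimulated arrays and 10.83 to 10.99 on the PMA arrays, with 4 higher and LYZ lower. The 10 fibroblast and smooth muscle markers averaged 5.28 to 5.34 and 5.60 to 5.90. Of these 10, PDGFRA (log2 fold change 3.15 ± 0.36) and PDGFRB (0.52 ± 0.14) rose, while COL1A1 (−0.0046 ± 0.09), COL1A2 (−0.0038 ± 0.09) and ACTA2 (−0.12 ± 0.12) did not pass. Epithelial, endothelial and lymphocyte markers had no riser among 16 measured, and 3 of them fell, KRT18, CD79A and NKG7. The part of any of these in the results below was not tested.

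Adhesion and actin regulators were higher in PMA-differentiated cells more often than lower. Kindlin-2 (FERMT2) changed most, 22.7-fold, followed by the long-tailed myosin MYO1E, the adhesion kinase FAK (PTK2), cortactin (CTTN) and alpha-parvin (PARVA), each higher by at least 4-fold. In a limma fit across all genes with Benjamini-Hochberg adjustment, 31 of the 51 members passed an adjusted p of 0.05, where 26.4% of all genes did. Of these, 25 rose (49.0% of members, against 13.2% of all genes) and 6 fell (11.8%, against 13.2%), so the share that fell was near that of all genes. At least 2-fold, 15 rose (29.4%, against 5.17%) and 2 fell (3.92%, against 3.2%). The median log2 fold change was 0.42 over the members and −0.03 over all genes. The groups of 3 arrays did not overlap for 34 members, 28 with PMA higher and 6 with PMA lower (66.7%, against 41.2% of all genes). Without both arrays that stood apart, 28 members rose and 6 fell. The count of 6 lower was less steady: it became 2 without unstimulated replicate 2 or unstimulated replicate 3, and 3 without unstimulated replicate 1, PMA replicate 1 or PMA replicate 2. With a gene-wise test that shares no variance between genes it was 2. RNA was taken from whole cultures, so a change in the number of cells that make a transcript and a change in the amount per cell cannot be told apart.

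**Figure D1:**
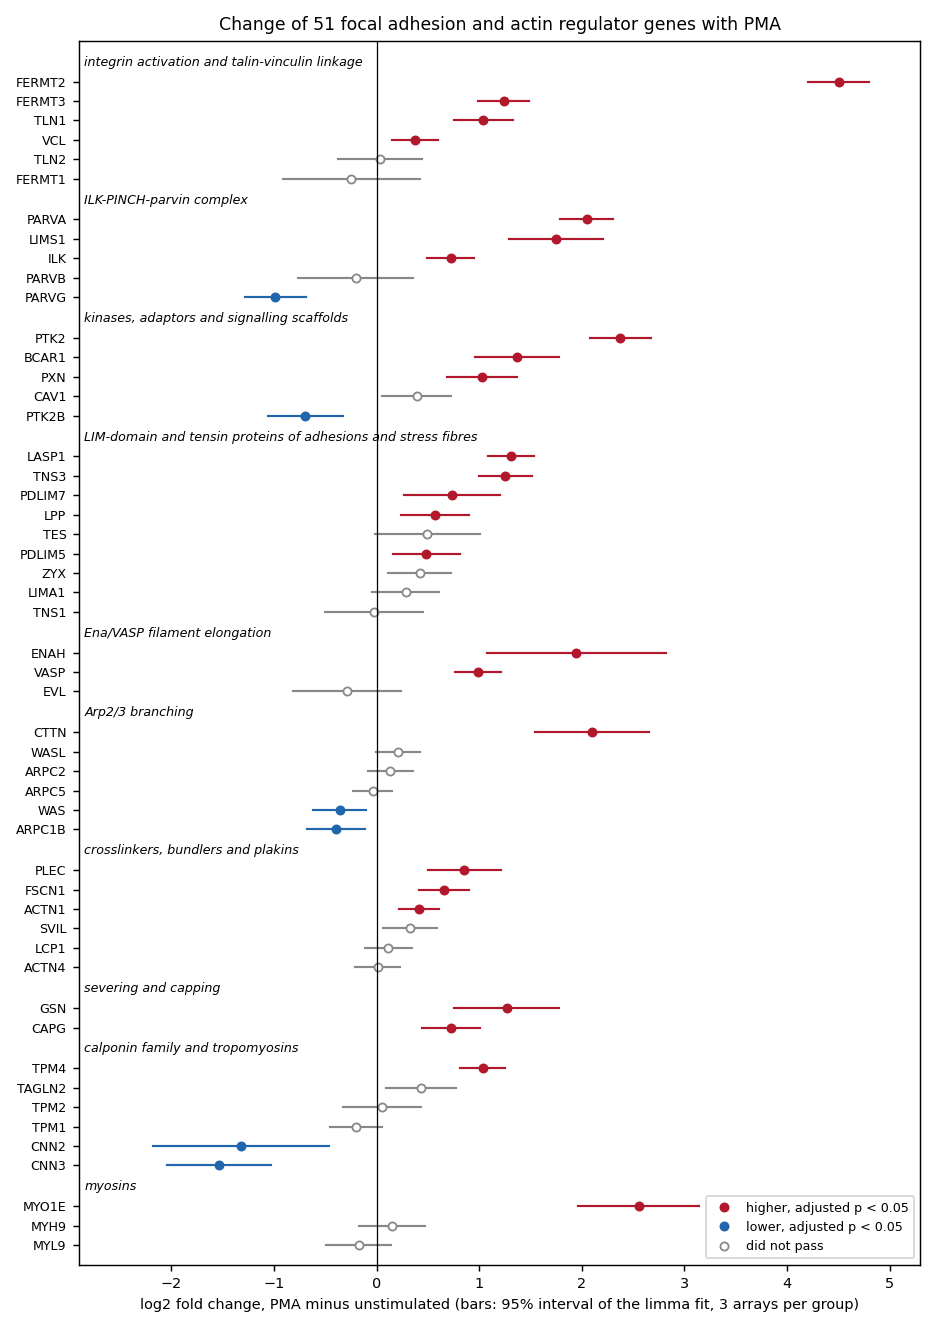
Each point is the log2 fold change of 1 member, PMA minus unstimulated, and each bar its 95% interval in the limma fit with 3 arrays per group, ordered by role. FERMT2 lies alone at 4.51, 25 members are higher (red), 6 lower (blue) and 20 did not pass (open).

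**Figure D2:**
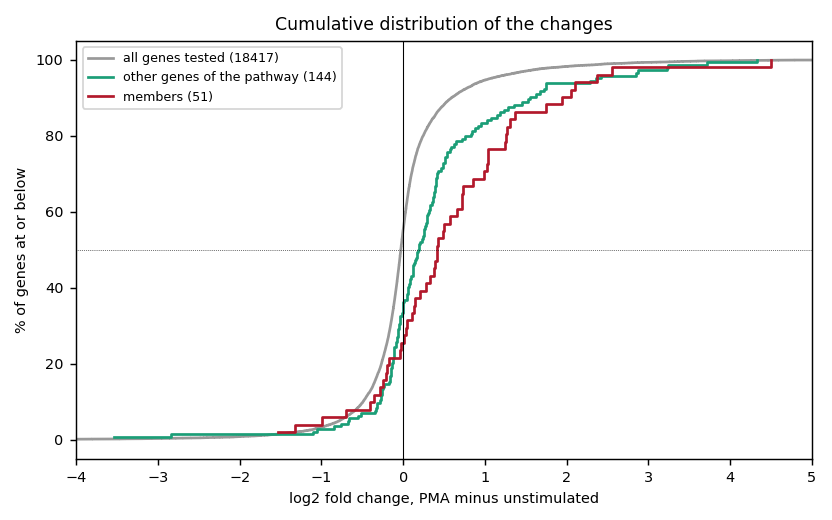
The horizontal axis is the log2 fold change and the vertical axis the percentage of genes at or below it, for all genes tested, 144 other genes of the pathway and the 51 members. The members' curve crosses its midpoint at 0.42, that of the other pathway genes at 0.19 and that of all genes at −0.03.

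Many cytoskeletal genes are known targets of the serum response factor SRF, whose binding motif is the CArG box, and PMA is known to act through the AP-1 factors, whose motif TGACTCA is called the TRE. RefSeq promoter windows (GRCh38.p14, 250 bases before to 50 after each annotated start) were matched for 44 members, 94 windows in all, and searched for both motifs on both strands (TGAGTCA is the TRE on the other strand). The plan was to count the CArG box only in called members changed at least 4-fold. Of these, PTK2, CTTN and PARVA had no window, FERMT2 had 1 without a box and MYO1E had 1 with a box. The count over all members goes beyond that plan. A CArG box lay in a window of 8 members (18.2% of 44, against 1.60% of all genes with a window), or 8.51% of the members' windows against 1.29% of all windows. They were MYO1E, TPM4, LPP, ACTN1, TES, SVIL, CNN2 and FLNA. Of the 7 that were measured, MYO1E, TPM4, LPP and ACTN1 rose, CNN2 fell, and TES and SVIL did not pass. The calls of CNN2 and LPP were lost under 8 and 4 of 16 alternative settings. Whether the box goes with a direction was not tested. The TRE, a search added after the data were seen, lay in a window of 5 members, FERMT3, BCAR1, CAPG, LPP and TAGLN2 (11.4%, against 6.05% of all genes). The first 4 rose and TAGLN2 did not pass. Beside the calls given for either motif, 49.0% of the 51 measured members rose, against 13.2% of all genes. Whether the TRE goes with a direction was not tested either. Counted by window, the TRE was in 7.45% of the members' windows and 4.95% of all windows. Among the members, no match of one motif overlapped a match of the other. A match describes the letters in the window and is not a measured binding site.

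The stretches around the matches are shown for the members with a box that were called, so that the motif can be read beside the change. Each runs 5′ to 3′ along the gene's strand, with the motif in capitals. For the CArG box they are:
MYO1E (chr15:59372872-59372927, minus strand, rose): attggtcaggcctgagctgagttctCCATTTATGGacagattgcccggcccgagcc
TPM4 (chr19:16067340-16067399, plus strand, rose): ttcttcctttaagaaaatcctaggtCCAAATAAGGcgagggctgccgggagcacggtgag
LPP (chr3:188212504-188212563, plus strand, rose): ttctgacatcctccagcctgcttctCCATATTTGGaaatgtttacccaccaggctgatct
ACTN1 (chr14:68977703-68977762, minus strand, rose): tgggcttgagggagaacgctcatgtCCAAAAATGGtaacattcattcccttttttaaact
CNN2 (chr19:1026494-1026553, plus strand, fell): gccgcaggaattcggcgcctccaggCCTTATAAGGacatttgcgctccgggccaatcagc

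The box began 31 bases before an annotated start in MYO1E, 89 in CNN2, 171 in ACTN1, 173 in TPM4 and 183 in LPP. ACTN1 has 4 windows, TPM4 3 and LPP 7, and the box lay in 1 window of each. Which start these cells use was not tested. For the TRE the called members are:
FERMT3 (chr11:64207612-64207668, plus strand, rose): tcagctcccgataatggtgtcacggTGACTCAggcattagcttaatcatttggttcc
BCAR1 (chr16:75268040-75268096, minus strand, rose): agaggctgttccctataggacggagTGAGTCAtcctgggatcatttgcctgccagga
CAPG (chr2:85414044-85414100, minus strand, rose): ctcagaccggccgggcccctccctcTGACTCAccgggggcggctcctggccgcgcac
LPP (chr3:188212556-188212612, plus strand, rose): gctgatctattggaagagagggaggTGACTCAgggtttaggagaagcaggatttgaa

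The motif began 59 to 69 bases before an annotated start in FERMT3, BCAR1 and CAPG, of which BCAR1 has 5 windows and CAPG 4. The LPP stretch comes from the same window as its CArG box, with the TRE 131 bases before the start, and a window at another LPP start holds a second TRE.

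Of 6 genes of integrin activation and the talin to vinculin link, 4 rose and none fell. The share that rose was 66.7%, against 13.2% of all genes. FERMT2, kindlin-2, which binds integrin beta tails in most adherent cells, was 4.67, 4.54 and 4.96 on unstimulated replicates 1 to 3 and 9.14, 9.19 and 9.36 on the PMA arrays. The groups lay far apart and the PMA arrays close together. The log2 fold change was 4.51 ± 0.13 (SE in the limma fit, as throughout; adjusted p = 1.30e-06), percentile 99.9 among the changes of all genes. Its unstimulated values were close to the arrays' lower quartiles, where RMA compresses differences, so the size of the rise is uncertain.

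FERMT3, the kindlin of blood cells, was 9.86, 10.13 and 10.08 without PMA and 11.29, 11.16 and 11.34 with it (1.24 ± 0.11, adjusted p = 0.000160; 2.36-fold). All PMA arrays were above all unstimulated arrays. A TRE lies in 1 of its 2 promoter windows, as shown above. FERMT1, the epithelial kindlin, was 6.37, 5.52 and 5.62 against 5.90, 5.83 and 5.05, with overlapping groups (−0.25 ± 0.29, adjusted p = 0.611, 95% interval −0.91 to 0.42). Talin-1 (TLN1), which couples integrins to actin, was 10.33, 10.26 and 10.28 without PMA and 11.55, 11.33 and 11.11 with it (1.04 ± 0.12, adjusted p = 0.000737). Talin-2 (TLN2) overlapped between groups (0.04 ± 0.18, adjusted p = 0.914). Without both arrays that stood apart, TLN2 passed with 0.31 (adjusted p = 0.0492).

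Vinculin (VCL), which clamps talin to actin, rose with no overlap between groups. It was 8.07, 8.18 and 8.25 without PMA and 8.62, 8.45 and 8.55 with it (0.37 ± 0.10, adjusted p = 0.0233; 1.30-fold). This call was lost without unstimulated replicate 1, unstimulated replicate 2 or PMA replicate 1, without both arrays that stood apart (adjusted p = 0.0553), at an adjusted p of 0.01 and with the replicate number as a block.

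The complex of the pseudokinase ILK, the adaptor PINCH-1 (LIMS1) and a parvin sits beside kindlin and holds actin. ILK was 9.43, 9.31 and 9.40 without PMA and 10.25, 10.01 and 10.04 with it (0.72 ± 0.10, adjusted p = 0.00147). LIMS1 was 8.54, 9.19 and 9.36 without PMA and 10.81, 10.81 and 10.70 with it (1.74 ± 0.20, adjusted p = 0.000586), with unstimulated replicate 1 the lowest. Both thus rose with no overlap between groups.

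Of the 3 parvins, 1 rose, 1 fell and 1 did not pass. PARVA, the parvin of most adherent tissues, was 8.11, 8.10 and 8.28 without PMA and 10.33, 10.28 and 10.03 with it (2.05 ± 0.11, adjusted p = 1.89e-05; 4.14-fold). PARVG, the parvin of blood cells, was 10.91, 10.67 and 10.62 without PMA and 9.85, 9.53 and 9.86 with it (−0.99 ± 0.13, adjusted p = 0.00117). Neither gene's groups overlapped, and both kept their call under every alternative run. PARVB overlapped between groups (−0.20 ± 0.24, adjusted p = 0.619), and was 8.12 on PMA replicate 3 against 8.87 and 9.01 on the other PMA arrays.

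The 2 kinases of the FAK family moved in opposite directions. PTK2 encodes FAK, the main tyrosine kinase of focal adhesions. It was 6.70, 6.80 and 6.71 without PMA and 9.22, 9.27 and 8.85 with it (2.37 ± 0.13, adjusted p = 1.76e-05; 5.19-fold). PTK2B encodes PYK2, its relative in blood cells and osteoclasts, and was 9.66, 10.09 and 10.12 without PMA and 9.40, 9.04 and 9.36 with it (−0.69 ± 0.16, adjusted p = 0.0139). Its groups were close together, and its call was lost without unstimulated replicate 2, without unstimulated replicate 3, at an adjusted p of 0.01 and by the gene-wise test.

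Docking proteins of FAK rose as well. BCAR1 (p130Cas), a substrate that FAK and SRC phosphorylate, was 6.60, 6.85 and 6.31 without PMA and 8.11, 8.10 and 7.66 with it (1.37 ± 0.17, adjusted p = 0.00107). Paxillin (PXN), the scaffold that recruits FAK, was 7.17, 7.18 and 6.96 without PMA and 8.45, 7.97 and 7.99 with it (1.03 ± 0.15, adjusted p = 0.00179). Its second probe set gave a log2 difference of 0.28, and the mean of both gave 0.65, still past the threshold. Caveolin-1 (CAV1), the coat protein of caveolae, did not pass (0.39 ± 0.15, adjusted p = 0.0895), with PMA replicate 3 (8.54) below unstimulated replicate 1 (8.59). Without PMA replicate 3 it passed with 0.55 (adjusted p = 0.00864).

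**Figure D3:**
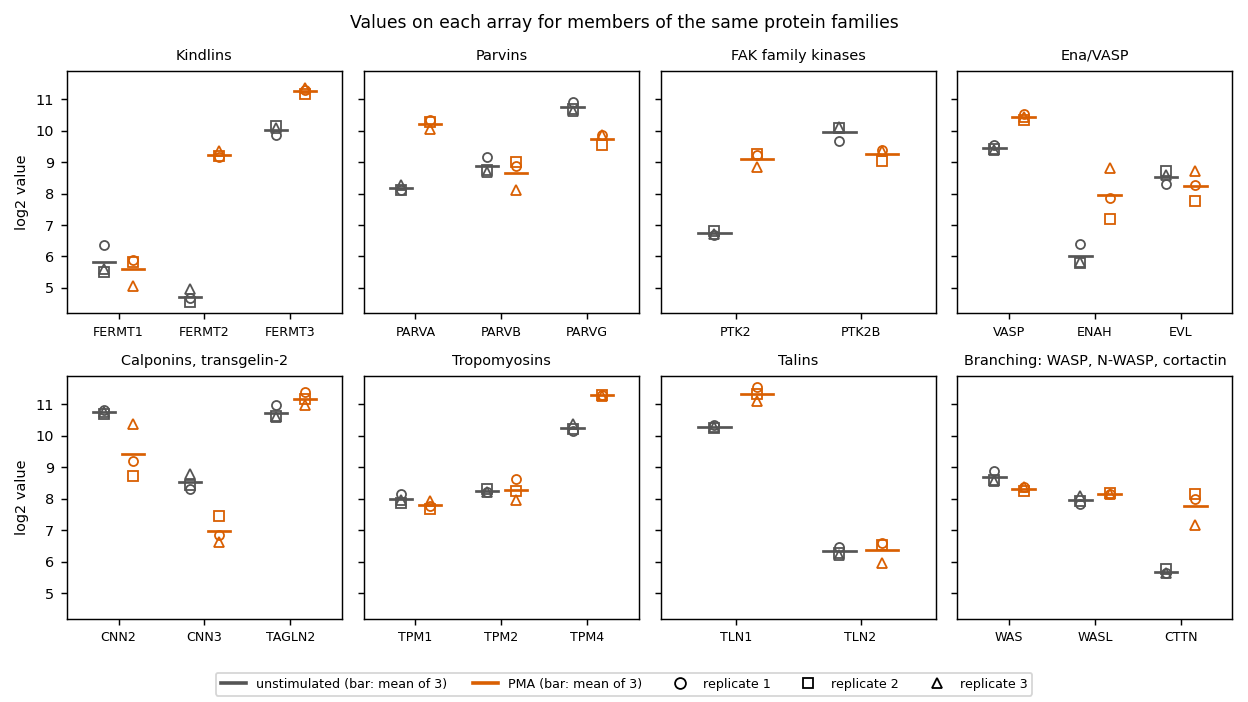
Log2 values on each array (marks, by replicate) and group means (bars) for families among the members, unstimulated in grey and PMA in orange. FERMT2, PARVA and PTK2 were higher on all PMA arrays, PARVG, PTK2B, CNN2 and CNN3 lower, and PMA replicate 3 lay apart for CNN2, ENAH and CTTN.

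Of 9 LIM-domain and tensin genes, whose products gather at adhesions and stress fibres, 5 rose and none fell. The share that rose was 55.6%, against 13.2% of all genes. LASP1, an actin-binding protein of podosomes, was 9.91, 10.05 and 10.08 without PMA and 11.43, 11.28 and 11.25 with it (1.31 ± 0.10, adjusted p = 7.60e-05). Its dimmer second probe set gave 0.28. TNS3, a tensin that links integrins to actin, was 9.19, 8.84 and 8.95 without PMA and 10.28, 10.19 and 10.27 with it (1.25 ± 0.11, adjusted p = 0.000181). Its relative TNS1 overlapped between groups (−0.03 ± 0.21, adjusted p = 0.949).

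Of zyxin and its relatives LPP and TES, 1 rose. LPP, a zyxin relative of adhesions, was 9.42, 9.88 and 9.87 without PMA and 10.21, 10.41 and 10.27 with it (0.57 ± 0.14, adjusted p = 0.0209), and its call was lost under 4 of the 16 alternatives, among them those without PMA replicate 1 (adjusted p = 0.0512) or PMA replicate 2 (adjusted p = 0.0723). Zyxin (ZYX), which senses tension on stress fibres, did not overlap between groups but missed the threshold, with 11.07, 10.94 and 10.76 against 11.57, 11.19 and 11.27 (0.42 ± 0.13, adjusted p = 0.0532). It passed under 6 of the 16 alternatives. The PDZ and LIM proteins PDLIM7 (0.73 ± 0.20, adjusted p = 0.0313) and PDLIM5 (0.49 ± 0.14, adjusted p = 0.0391) rose, and lost their calls under 6 and 9 of the 16 alternatives. TES (0.49 ± 0.22) and the bundling protein LIMA1 (0.29 ± 0.14) did not pass.

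Ena/VASP proteins extend actin filaments at their growing ends. VASP was 9.56, 9.40 and 9.39 without PMA and 10.52, 10.35 and 10.43 with it (0.99 ± 0.10, adjusted p = 0.000282). ENAH, the relative found mostly outside blood, was 6.41, 5.80 and 5.84 without PMA and 7.85, 7.21 and 8.82 with it (1.95 ± 0.38, adjusted p = 0.00700). The PMA arrays of ENAH spread over 1.61, yet all lay above the unstimulated arrays. EVL, the relative of lymphoid and myeloid cells, overlapped between groups (−0.29 ± 0.23, adjusted p = 0.429). Without both arrays that stood apart it was lower (−0.63, adjusted p = 0.00986).

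Of 6 genes of branched actin, the Arp2/3 complex and its partners, 1 rose and 2 fell. These were 16.7% and 33.3%, against 13.2% of all genes each way, so the share that rose was near that of all genes. Cortactin (CTTN), which stabilises branches at podosomes, rose, with 5.63, 5.77 and 5.63 without PMA and 7.99, 8.16 and 7.16 with it (2.10 ± 0.24, adjusted p = 0.000610; 4.28-fold). PMA replicate 3 was the lowest PMA array and still above every unstimulated array. WAS, the activator of Arp2/3 in blood cells, was 8.88, 8.59 and 8.57 without PMA and 8.36, 8.24 and 8.36 with it (−0.36 ± 0.11, adjusted p = 0.0482). The complex subunit ARPC1B was 11.96, 11.92 and 11.99 without PMA and 11.57, 11.34 and 11.77 with it (−0.40 ± 0.12, adjusted p = 0.0451). Both lay just past the threshold, and lost their calls under 11 and 7 of the 16 alternatives. N-WASP (WASL, 0.21 ± 0.09), ARPC2 (0.13 ± 0.09) and ARPC5 (−0.04 ± 0.08) did not pass, with adjusted p of 0.148, 0.360 and 0.789. The interval for ARPC5 was −0.23 to 0.15.

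Of 6 measured crosslinkers and bundlers of filaments, 3 rose and none fell, where 13.2% of all genes rose and 13.2% fell. With so few genes, the absence of a fall says little. Plectin (PLEC), which ties actin to intermediate filaments, was 8.26, 8.81 and 8.75 without PMA and 9.48, 9.55 and 9.36 with it (0.85 ± 0.15, adjusted p = 0.00515). Fascin (FSCN1), the bundler of filopodia, was 10.67, 10.59 and 10.58 without PMA and 11.32, 11.09 and 11.40 with it (0.66 ± 0.11, adjusted p = 0.00313). Alpha-actinin-1 (ACTN1), which spaces filaments in stress fibres, was 11.86, 11.82 and 11.86 without PMA and 12.22, 12.33 and 12.24 with it (0.41 ± 0.08, adjusted p = 0.00899). Its paralog ACTN4 (0.01 ± 0.09, adjusted p = 0.954, interval −0.21 to 0.23) and the leukocyte bundler L-plastin (LCP1, 0.11 ± 0.10, adjusted p = 0.477) overlapped between groups. Supervillin (SVIL) did not overlap but did not pass (0.33 ± 0.11, adjusted p = 0.0718).

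Gelsolin (GSN) and CAPG, the 2 members listed for cutting or capping filaments, both rose, where 13.2% of all genes did. Relatives placed in other lists are not counted here. GSN was 9.26, 10.10 and 10.06 without PMA and 11.23, 10.99 and 11.00 with it (1.27 ± 0.22, adjusted p = 0.00435), with unstimulated replicate 1 well below the other unstimulated arrays. Without both arrays that stood apart its change was 1.03. CAPG, the capping protein of macrophages, was 9.35, 9.43 and 9.43 without PMA and 10.25, 10.26 and 9.88 with it (0.73 ± 0.12, adjusted p = 0.00378).

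Proteins that coat filaments held the largest falls among the members. CNN3, a calponin that binds along filaments, was 8.32, 8.44 and 8.78 without PMA and 6.85, 7.46 and 6.64 with it (−1.53 ± 0.22, adjusted p = 0.00174; 2.90-fold lower). CNN2, the calponin of macrophages and smooth muscle, was 10.81, 10.70 and 10.76 without PMA and 9.21, 8.71 and 10.39 with it (−1.32 ± 0.37, adjusted p = 0.0325). Its PMA replicate 3 array was close to the unstimulated arrays, and the PMA arrays spread over 1.68, the widest range of any member in either group. CNN2 lost its call in each leave-one-out fit except that without PMA replicate 3, where the change was −1.80. Its window holds a CArG box, as do those of several members that rose.

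Tropomyosins line filaments and control access to them, and 1 of the 3 changed. TPM4, the tropomyosin of podosomes and platelets, was 10.16, 10.22 and 10.39 without PMA and 11.30, 11.30 and 11.27 with it (1.03 ± 0.09, adjusted p = 0.000200). Its second probe set gave 0.51. TPM1 (−0.20 ± 0.11, adjusted p = 0.244) and TPM2 (0.05 ± 0.16, adjusted p = 0.873) overlapped between groups. Transgelin-2 (TAGLN2), a small calponin relative, did not pass (0.43 ± 0.15, adjusted p = 0.0672), but passed under 5 of the 16 alternatives.

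Among the myosins, the membrane-linked MYO1E, which works at podosomes and in phagocytosis, was 7.40, 8.27 and 8.42 without PMA and 10.53, 10.42 and 10.79 with it (2.55 ± 0.25, adjusted p = 0.000311; 5.87-fold). Unstimulated replicate 1 was the lowest array, and without it and PMA replicate 3 the change was 2.13. The contractile motors overlapped between groups. MYH9, the heavy chain of non-muscle myosin IIA, was 10.57, 10.83 and 10.81 against 10.83, 10.69 and 11.13 (0.15 ± 0.14, adjusted p = 0.511). MYL9, a regulatory light chain, gave −0.18 ± 0.14 (adjusted p = 0.412).

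Genes of the same machinery outside these members were followed in 7 lists of 160 genes, 144 of them measured, and 6 of the lists are described below. Of all 144, 48 rose and 10 fell (33.3% and 6.94%, against 13.2% of all genes each way), with a median of 0.19. The 48 became 31 without unstimulated replicate 2, and the 10 became 21 without both arrays that stood apart. Actin itself did not pass: ACTB gave −0.11 ± 0.09 (adjusted p = 0.434) and ACTG1 −0.27 ± 0.10 (adjusted p = 0.0907). Of 20 genes of actin and its turnover, 5 rose and 1 fell. The monomer-binding protein TWF1 (0.95 ± 0.12) and the coronin CORO1C (0.84 ± 0.09) rose most, and AIF1, an actin-binding protein of macrophages, fell (−0.52 ± 0.10).

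Of 24 other genes of nucleation and branching, 8 rose and 2 fell (33.3% and 8.33%, against 13.2% of all genes each way). NCKAP1, a subunit of the WAVE complex that activates Arp2/3, was 4.23, 4.42 and 4.81 without PMA and 9.12, 9.10 and 8.23 with it (4.33 ± 0.26, adjusted p = 2.71e-05), from values near the lower quartiles. The formin FMNL2 rose by 3.24 ± 0.26 and the formin DIAPH1 fell (−0.66 ± 0.11).

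Of 10 podosome genes, 7 rose and 1 fell (70.0% and 10.0%, against 13.2% of all genes each way), with a median of 1.23. The membrane collagenase MMP14 (2.87 ± 0.16) and the podosome scaffold SH3PXD2B (1.73 ± 0.20) rose, and LSP1, an actin-binding protein of leukocytes, fell (−1.05 ± 0.20). Of 36 other adhesion scaffolds and kinases, 12 rose and 4 fell (33.3% and 11.1%). The SRC family kinase FYN (1.75 ± 0.16) and the RAP1 activator RAPGEF1 (1.07 ± 0.10) rose, and PDLIM1, a relative of the members PDLIM5 and PDLIM7, fell by 3.54 on the log2 scale (SE 0.12, adjusted p = 1.92e-06). PDLIM1 was 8.56, 8.63 and 8.62 without PMA and 4.97, 4.94 and 5.29 with it.

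Of 17 other tropomyosin, calponin, bundling and myosin genes, 5 rose and 1 fell (29.4% and 5.88%, against 13.2% of all genes each way). The intermediate filament gene VIM (2.28 ± 0.25) and the motor MYO5A (1.23 ± 0.23) rose, while MYO1G, a leukocyte myosin of the same class as MYO1E, fell (−2.84 ± 0.25). Of 14 measured factors and targets of the SRF and YAP pathways, which respond to actin and adhesion, 5 rose and none fell. The share that rose was 35.7%, against 13.2% of all genes. The YAP target ANKRD1 (3.23 ± 0.76) and YAP1 itself (2.37 ± 0.30) rose. The targets CCN1 (0.73 ± 0.27, adjusted p = 0.0856), CCN2 (0.12 ± 0.10, adjusted p = 0.453) and AMOTL2 (0.23 ± 0.09, adjusted p = 0.109) did not pass. Nor did SRF itself (−0.08 ± 0.10, adjusted p = 0.657). ANKRD1 was 8.21, 9.88 and 6.27 on the PMA arrays, lowest on PMA replicate 3, and 4.81 to 5.02 on the unstimulated arrays.

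**Figure D4:**
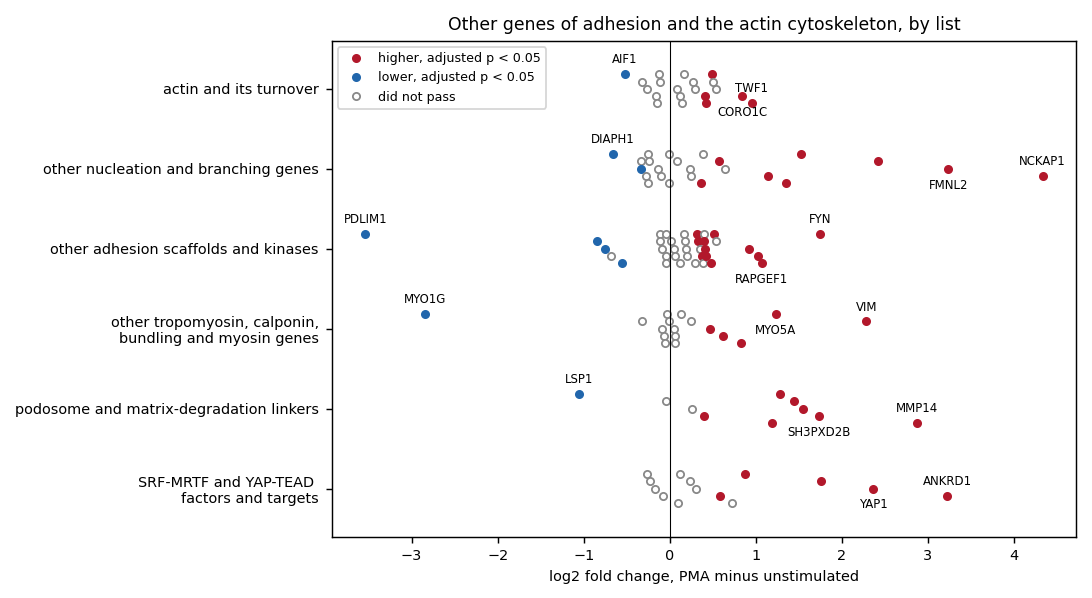
Each point is the log2 fold change of 1 other gene of adhesion or the actin cytoskeleton, PMA minus unstimulated, for the 6 lists described. Points are spread vertically only for legibility. NCKAP1 lies farthest right at 4.33 and PDLIM1 farthest left at −3.54, with higher calls in red and lower calls in blue.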

How the data were processed

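The authors deposited a log2 value for every probe set on 6 single-channel Affymetrix arrays of THP-1 total RNA. RMA and Partek are named, without versions, per the submitters' processing notes. RMA corrects background, normalizes between arrays and summarises probes, which compresses changes near background.

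Of 33297 probe sets, 19460 carried 1 symbol, 1754 several and 12083 none here; 19429 matched the current gene table (GRCh38.p14). The brightest probe set by mean over the 6 arrays stood for each of 18417 genes. Groups came from the sample titles. The groups were compared with limma 3.58.1 (R 4.3.3), with group as the only term and 7.71 total degrees of freedom after eBayes. P-values were adjusted by Benjamini-Hochberg over every gene tested, and genes below 0.05 were called. No dim genes were left out. The fit was checked on simulated data. Figures used matplotlib 3.10.9.

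The members and lists were chosen with earlier results of these data known. All members may be named; of each other list, the 2 largest rises and the largest fall past the threshold are named in the report, and ACTB and ACTG1. CCN1, CCN2, AMOTL2, SRF and the relatives named under the other observations fall outside this rule and were chosen after their values were seen. The numbers in the titles were checked for pairing by the correlation of deviations from the group means. It was 0.18, −0.02 and 0.05 for the same number and −0.15 to 0.11 for different numbers. With 3 arrays a group this check cannot tell whether the samples are paired. Alternatives covered scaling, dim genes, the probe set, the variance model, a replicate block, the threshold and each array left out. Leaving out both arrays that stood apart was added after seeing the data.

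The stretches shown around motifs, other than that of MYO1E, were chosen after the values were seen. The count of CArG boxes over all members was wider than planned. A planned comparison of the family members' proteins was not made. The results of 1 list of pathway genes are not reported here on their own.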

Additional observations from a re-analysis of the deposited data

How the results depend on the processing

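Over 16 alternatives, none of the 31 called members changed direction, and 20 kept their call in all of them, 18 higher and 2 lower (PARVG and CNN3). The other 11 lost it at least once: VCL, PTK2B, LPP, PDLIM5, PDLIM7, ENAH, WAS, ARPC1B, PLEC, GSN and CNN2. ENAH, PLEC and GSN lost it in the gene-wise test alone. The number of members higher ran from 19 (gene-wise test) to 28 (without both arrays that stood apart). The number lower was 2 in the gene-wise test and at an adjusted p of 0.01, and 2 to 5 with an array left out. Members changed at least 2-fold ran from 14 to 18 around 17. Calls among the other pathway genes fell from 58 to 38 at an adjusted p of 0.01. With the replicate block, 26 members were higher and 5 lower; VCL and WAS lost their calls and ZYX and TAGLN2 gained one. The titles' numbers are shared, but not every pair deviated together.

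Members that changed sign were all uncalled. ACTN4 was −0.043 with quantile normalization repeated, −0.0091 with arrays centred on their medians, −0.0115 without both arrays that stood apart, and −0.0491 to 0.0482 with an array left out. TPM2 was −0.0054 with quantile normalization repeated and −0.13 to 0.21 with an array left out. TNS1 was 0.0055 by cyclic loess, 0.25 without both arrays, and −0.20 to 0.23 with an array left out. FERMT1 was 0.29, PARVB 0.22 and MYH9 −0.0607 without both arrays. With an array left out, FERMT1 ran from −0.41 to 0.0239, PARVB from −0.38 to 0.0704 and TLN2 from −0.0828 to 0.24. The cause was not tested. Signal near background limits the size of changes for FERMT2 and NCKAP1. Other dim values have the same limit, among them ANKRD1 without PMA (mean 4.89) and PDLIM1 with PMA (mean 5.07).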

Other observations

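The relatives of some of these genes given here were chosen after their values were seen. The leukocyte WAVE subunit NCKAP1L did not pass (−0.01 ± 0.11, adjusted p = 0.973), while its relative NCKAP1 rose by 4.33 and their partner CYFIP1 rose (1.35 ± 0.10, adjusted p = 7.95e-05). All 3 formins of the FMNL family rose, FMNL1 (1.53 ± 0.17), FMNL2 (3.24 ± 0.26) and FMNL3 (2.42 ± 0.14). Among short-tailed and long-tailed class I myosins, MYO1E rose, MYO1G fell and MYO1F did not pass (0.06 ± 0.09, adjusted p = 0.713). The TEAD1 partner of YAP1 rose (1.75 ± 0.13), whereas TEAD2, TEAD3 and TEAD4 did not pass.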
